A study of Homo sapiens with 4 samples.

Results

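Tight and tricellular junction genes were followed in 4 lines of MCF10A, a non-tumorigenic human breast epithelial cell line. The genes were listed by symbol, 9 in all: the claudins CLDN1, CLDN4 and CLDN7, the MARVEL-domain genes OCLN, MARVELD2 and MARVELD3, the tricellular receptor gene LSR, and the scaffold genes TJP1 and TJP3. A gene was measured where a probe set was annotated to exactly 1 symbol, which gave 8 of the 9, out of 20893 genes measured that way on the arrays. OCLN had no such probe set, because the only one annotated to it is also annotated to its pseudogene OCLNP1. That shared probe set is described beside the others and stands outside every count.

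The lines carried, by stable transfection, Her2 (the receptor tyrosine kinase gene ERBB2) together with the H1047R variant of PIK3CA, that variant alone, Her2 alone, or LacZ, a bacterial enzyme gene used as the control. The product of PIK3CA is a lipid kinase that acts below such receptors, and the study looked for genes controlled by either gene or by both. All 4 lines grew without treatment in the same SFIHE medium, and the sources used here do not say whether a line was 1 clone or a pool, or which promoter drove the introduced gene. Total RNA of each line was measured on 1 Affymetrix array, so no difference below has a replicate check, no SD and no p-value. The values are the deposited log2 values, on which a difference of 1 is 2-fold, and a gene was called higher or lower from 2-fold on. They were compared between arrays within a gene and not between genes, except where a list's linear signals were summed.

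The introduced gene ERBB2 went against the labels. Its probe set, shared with the microRNA gene MIR4728, read 7.39 on the array labelled Her2 + mutant PIK3CA, 8.48 on the array labelled mutant PIK3CA, 4.29 on the array labelled Her2 and 5.96 on the array labelled LacZ. It was thus highest on the array labelled mutant PIK3CA and lowest on the array labelled Her2, so the groups are named by their labels throughout. The array labelled Her2 + mutant PIK3CA is also called the doubly labelled array. PIK3CA was not analysed here. Array medians over all 53617 probe sets lay between 1.13 and 1.17.

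Tight junctions seal the space between neighbouring epithelial cells near their apical side. Claudins are membrane proteins whose strands form the seal and set which ions pass, and occludin and its MARVEL-domain relatives join them in the strands. At the corners where several cells meet, LSR (angulin-1) recruits tricellulin, the product of MARVELD2. Beneath the membrane, the zonula occludens scaffolds, among them the products of TJP1 and TJP3, tie these proteins to actin. MCF10A cells are often described as forming weak tight junctions in culture, while expressing several of the components.

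Promoter sequences are shown for 4 of the genes because factors of the SNAI and ZEB families, which repress epithelial genes, bind the hexamer CAGGTG. Capitals mark CAGGTG or its reverse complement CACCTG. Each sequence holds the 250 bases before an annotated transcript start, from RefSeq on GRCh38.p14, read 5′ to 3′ in the direction of the gene. CLDN7 is shown at the more downstream of its starts (chr17:7262479-7262728, minus strand), OCLN at the more upstream of its starts (chr5:69492297-69492546, plus strand), TJP1 at the most upstream of its starts (chr15:29969050-29969299, minus strand), and LSR at its start (chr19:35248752-35249001, plus strand).
CLDN7: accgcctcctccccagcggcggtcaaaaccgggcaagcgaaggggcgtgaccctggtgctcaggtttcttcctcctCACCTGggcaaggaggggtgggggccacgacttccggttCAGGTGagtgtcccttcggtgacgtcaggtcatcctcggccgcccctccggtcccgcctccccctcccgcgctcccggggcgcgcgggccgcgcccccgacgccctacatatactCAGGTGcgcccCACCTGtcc
OCLN: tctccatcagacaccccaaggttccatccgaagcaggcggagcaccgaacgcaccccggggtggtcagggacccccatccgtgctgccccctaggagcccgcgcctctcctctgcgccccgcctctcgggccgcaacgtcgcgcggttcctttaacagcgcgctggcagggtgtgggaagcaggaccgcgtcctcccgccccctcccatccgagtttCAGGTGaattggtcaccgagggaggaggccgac
TJP1: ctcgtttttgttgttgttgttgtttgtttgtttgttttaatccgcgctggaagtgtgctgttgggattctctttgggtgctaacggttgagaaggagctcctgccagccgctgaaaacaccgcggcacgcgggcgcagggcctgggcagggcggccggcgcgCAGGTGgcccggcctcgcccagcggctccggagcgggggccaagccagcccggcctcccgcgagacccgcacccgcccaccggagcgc
LSR: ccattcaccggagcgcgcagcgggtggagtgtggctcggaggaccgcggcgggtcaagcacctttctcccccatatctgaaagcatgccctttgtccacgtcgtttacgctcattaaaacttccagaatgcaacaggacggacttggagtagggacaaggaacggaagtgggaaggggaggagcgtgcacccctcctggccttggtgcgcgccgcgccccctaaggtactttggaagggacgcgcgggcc

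The CLDN7 sequence held 4 matches, which began 174, 135, 20 and 9 bases before the start, whereas the other CLDN7 start held 0. OCLN held 1, beginning 33 bases before the start, and TJP1 held 1, beginning 88 bases before it. The other OCLN start held 1, and the other TJP1 starts held 0. LSR held 0, as did the promoters of CLDN1, CLDN4 and MARVELD2. RefSeq promoters were found for 8 of the 9 genes, MARVELD3 being the exception, with 14 starts in all. Of these, 5 starts in 4 genes (CLDN7, OCLN, TJP1 and TJP3) held the hexamer on either strand, where 17.5% of all 35116 promoters of this length did. At least 4 matches occurred in 43 of all promoters (0.122%). The core AACNNGTT of the motif of GRHL factors, which maintain epithelial junction genes, was in 0 of the 14 and in 3.00% of all promoters. A match is a description of letters in a window, not a bound site.

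The array labelled Her2 + mutant PIK3CA carried the lowest value of 7 of the 8 genes, and the share of all genes lowest there was not counted. Compared with the LacZ array, 6 of 8 were lower by 2-fold or more and 0 were higher by as much, and the median difference was -1.56. Of the 4311 genes with a value of 5 or more on any array, 11.1% were lower and 13.8% higher by that rule, and their median was 0.04. Without that filter, which 5 of the 8 junction genes pass, 4.44% of all 20893 genes were lower and 6.49% higher. Of those 5 junction genes, 4 were lower by 2-fold or more. The junction genes were listed with earlier results of these data known, so their counts are not independent of the data. In a bulk sample, fewer cells expressing a gene and less RNA per cell cannot be told apart.

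**Figure D1:**
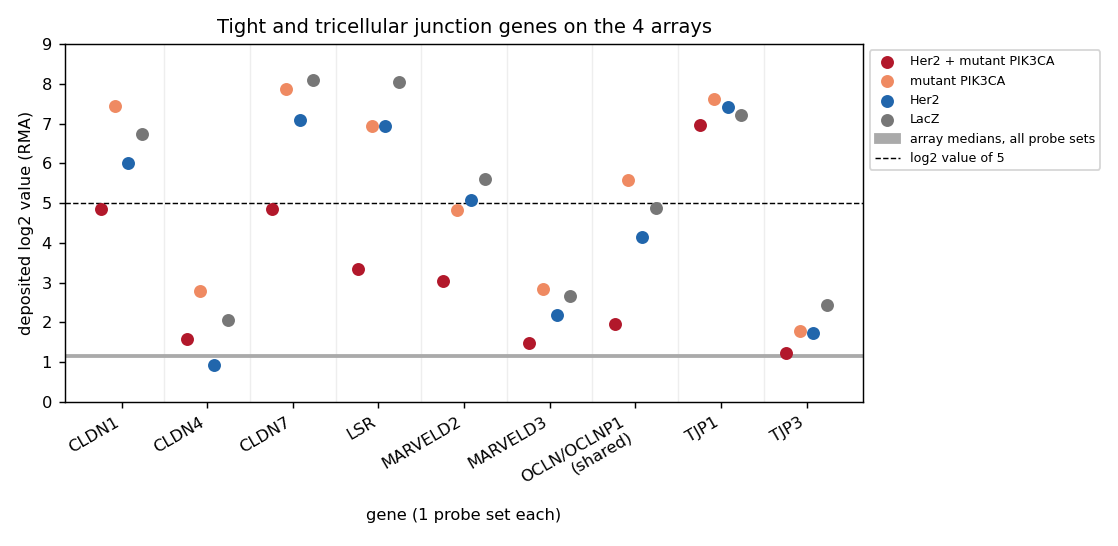
Deposited log2 value of each junction gene (vertical axis) on the arrays labelled Her2 + mutant PIK3CA, mutant PIK3CA, Her2 and LacZ (left to right within each gene, 1 point per array), with the band of array medians over all probe sets and a dashed line at 5. The array labelled Her2 + mutant PIK3CA is lowest for every gene shown except CLDN4, and CLDN4, MARVELD3 and TJP3 stay below 3 on all arrays.

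LSR showed the widest range of the 8 genes. Its value was 3.33 on the array labelled Her2 + mutant PIK3CA, 6.94 on the array labelled mutant PIK3CA, 6.94 on the array labelled Her2 and 8.05 on the LacZ array. The arrays labelled with a single gene were alike, a difference of 0.00, and both lay between the other arrays. Against LacZ, LSR differed by -4.72 on the doubly labelled array, a 26.4-fold lower signal that ranked 2 from the lowest of 4311 genes. It differed by -1.11 on the array labelled mutant PIK3CA and by -1.12 on the array labelled Her2, the only one of the 8 genes at least 2-fold lower than LacZ on each single-gene array.

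MARVELD2, whose protein tricellulin LSR brings to cell corners, followed the same order of the outer arrays over a smaller range. It read 3.03 on the array labelled Her2 + mutant PIK3CA, 4.81 on the array labelled mutant PIK3CA, 5.08 on the array labelled Her2 and 5.60 on the LacZ array. Its difference from LacZ was -2.56 on the doubly labelled array, 5.90-fold lower, and -0.78 and -0.52 on the arrays labelled mutant PIK3CA and Her2. Thus both tricellular junction genes were highest on the LacZ array and intermediate on both single-gene arrays, as were CLDN7 and TJP3.

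Among the claudins, CLDN7, a claudin found along the lateral membrane as well as in strands, was 4.85 on the array labelled Her2 + mutant PIK3CA, 7.87 on the array labelled mutant PIK3CA, 7.08 on the array labelled Her2 and 8.11 on the LacZ array. The doubly labelled array was 9.56-fold lower than LacZ, a difference of -3.26 at rank 20 from the lowest of 4311. On the array labelled Her2 it differed by -1.02, just past 2-fold, and on the array labelled mutant PIK3CA by -0.24.

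CLDN1, a claudin required for the barrier of the epidermis, had another order. It was 4.84 on the array labelled Her2 + mutant PIK3CA, 7.45 on the array labelled mutant PIK3CA, 6.01 on the array labelled Her2 and 6.73 on the LacZ array. The array labelled mutant PIK3CA was therefore the highest, 0.72 above LacZ, and the doubly labelled array differed from LacZ by -1.90 (3.72-fold lower). The Her2-labelled array differed from LacZ by -0.72.

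CLDN4, a claudin that tightens the seal against cations, was low throughout. Its values were 1.58 on the array labelled Her2 + mutant PIK3CA, 2.79 on the array labelled mutant PIK3CA, 0.92 on the array labelled Her2 and 2.06 on the LacZ array. It was the only one of the 8 genes with its lowest value on the array labelled Her2, and that value lay below the median of its array (1.16). On the doubly labelled array and the array labelled Her2 it differed from LacZ by -0.48 and -1.14, the second of them at the low end of the scale, where values are compressed.

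MARVELD3, a MARVEL-domain protein of the strands, was 1.49, 2.83, 2.19 and 2.66 on the arrays labelled Her2 + mutant PIK3CA, mutant PIK3CA, Her2 and LacZ. The doubly labelled array was 2.26-fold lower than LacZ, a difference of -1.18, and the other differences from LacZ, 0.16 and -0.47, were under 2-fold. All of these values lay below 3, where differences are compressed.

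For OCLN, which encodes occludin, only the probe set shared with OCLNP1 was at hand. It read 1.95 on the array labelled Her2 + mutant PIK3CA, 5.57 on the array labelled mutant PIK3CA, 4.14 on the array labelled Her2 and 4.87 on the LacZ array. The order of the arrays was that of CLDN1, and the doubly labelled array was 7.57-fold lower than LacZ (a difference of -2.92). The probe set annotated to OCLNP1 alone gave 3.43, 6.06, 3.27 and 5.00 on the same arrays, so it was low on the array labelled Her2 as well. Which of the 2 transcripts each probe set reads was not tested. OCLN and MARVELD2 are neighbouring protein-coding genes on chromosome 5 in the RefSeq order, yet MARVELD2 was highest on the LacZ array and the shared OCLN probe set on the array labelled mutant PIK3CA.

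The scaffold genes stood apart from each other. TJP1, which encodes the scaffold ZO-1, read 6.97 on the array labelled Her2 + mutant PIK3CA, 7.62 on the array labelled mutant PIK3CA, 7.42 on the array labelled Her2 and 7.21 on the LacZ array. Its range of 0.65 was the smallest of the 8 genes, and it was under 2-fold in all 6 pairs of arrays. TJP3, which encodes ZO-3, was 1.22, 1.77, 1.72 and 2.44 on the same arrays in that order, with a difference from LacZ of -1.23 on the doubly labelled array. That lowest TJP3 value lay near the array's median of 1.13, at the low end of the scale.

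**Figure D2:**
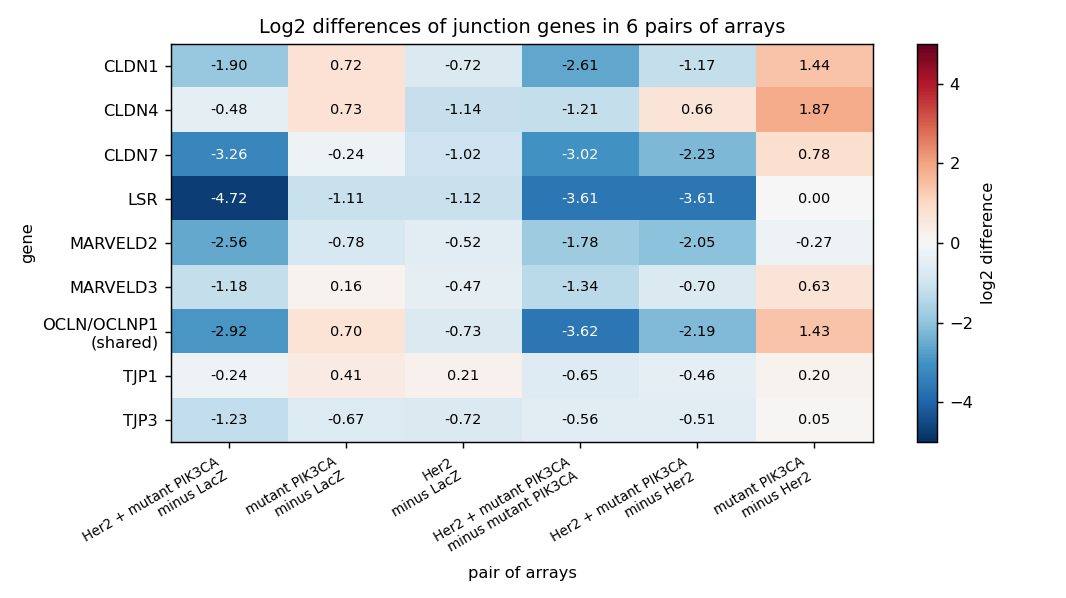
Log2 difference (colour and number) of each junction gene, in rows, for 6 pairs of arrays, in columns, first array minus second. The pairs that contain the array labelled Her2 + mutant PIK3CA hold the lowest differences, down to -4.72 for LSR, while TJP1 stays between -0.65 and 0.41.

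The arrays labelled with a single gene were each set against LacZ. On the array labelled mutant PIK3CA, 1 of 8 genes (LSR) was at least 2-fold lower and 0 higher, with a median of -0.04, where 4.08% of the 4311 genes were lower and 7.07% higher (1.93% and 2.61% of all 20893 genes). On this array 4 genes (CLDN1, CLDN4, MARVELD3 and TJP1) had their highest value of all arrays, though each was less than 2-fold above LacZ. The share of all genes highest there was not counted. On the array labelled Her2, 3 of 8 genes (CLDN4, CLDN7 and LSR) were at least 2-fold lower and 0 higher, with a median of -0.72, where 2.57% of the 4311 genes were lower and 2.95% higher (1.67% and 1.86% of all genes). There 7 of the 8 differences were below 0, TJP1 (0.21) being the exception, where the median over the 4311 genes was 0.02. Both comparisons share the LacZ array, on which CLDN7, LSR, MARVELD2 and TJP3 had their highest values.

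**Figure D3:**
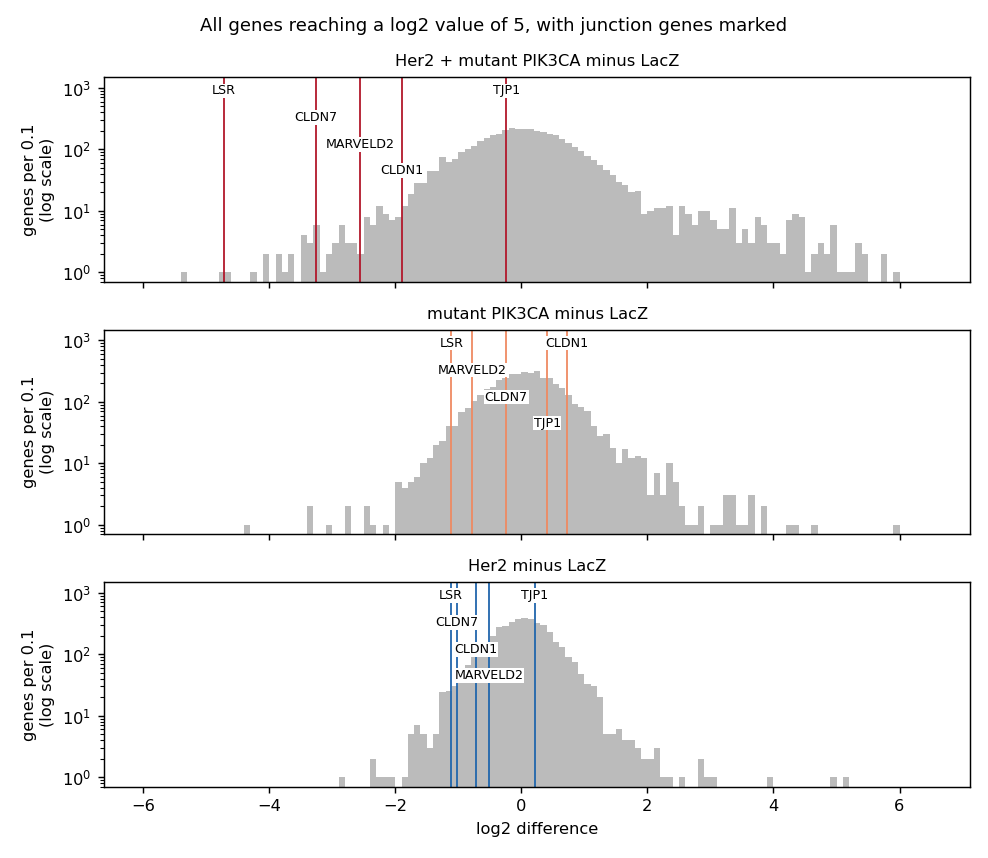
Number of genes (log axis) by log2 difference from the LacZ array for the arrays labelled Her2 + mutant PIK3CA, mutant PIK3CA and Her2, over the 4311 genes that reached a log2 value of 5, with the 5 junction genes among them marked. LSR, CLDN7, MARVELD2 and CLDN1 lie in the lower tail at the top (-4.72 to -1.90), and all 5 lie between -1.12 and 0.72 in the other panels.

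The doubly labelled array was also set against each single-gene array. Against the array labelled mutant PIK3CA, 6 of 8 genes were at least 2-fold lower and 0 higher (median -1.56), where 8.88% of the 4311 genes were lower and 10% higher (3.48% and 5.28% of all genes). LSR differed by -3.61, CLDN7 by -3.02, CLDN1 by -2.61, MARVELD2 by -1.78, MARVELD3 by -1.34 and CLDN4 by -1.21. Against the array labelled Her2, 4 of 8 were at least 2-fold lower and 0 higher (median -0.94), where 6.08% were lower and 9.09% higher (2.64% and 4.41% of all genes). These were LSR at -3.61, CLDN7 at -2.23, MARVELD2 at -2.05 and CLDN1 at -1.17, whereas CLDN4 was 0.66 above the array labelled Her2. The genes lower in both pairs were LSR, CLDN7, MARVELD2 and CLDN1, and the 2 pairs share the doubly labelled array.

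The single-gene arrays differed from each other in 2 of the 8 genes. CLDN4 and CLDN1 were higher on the array labelled mutant PIK3CA than on the array labelled Her2, by 1.87 and 1.44, where 6.15% of the 4311 genes were higher by 2-fold and 3.69% lower (2.72% and 2.56% of all genes). CLDN4 rests on values of 2.79 and 0.92, at the low end of the scale. Of the 5 junction genes that reached 5, CLDN1 alone was called. The shared OCLN probe set differed by 1.43 in the same direction. CLDN7 differed by 0.78 and MARVELD3 by 0.63. LSR (0.00), TJP3 (0.05), TJP1 (0.20) and MARVELD2 (-0.27) were nearly level between these arrays.

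Values on the doubly labelled array were next compared with the sum of the single differences. The additive expectation was the value labelled mutant PIK3CA plus the value labelled Her2 minus LacZ, which does not depend on which single-gene array carries which label. LSR measured 3.33 against an expectation of 5.83, a departure of -2.49. CLDN7 (4.85 against 6.84), CLDN1 (4.84 against 6.73) and MARVELD2 (3.03 against 4.30) departed by -1.99, -1.89 and -1.26. For these 4 genes the doubly labelled array was more than 2-fold below the sum of the single differences, where 9.02% of the 4311 genes departed as far downwards and 9.49% upwards (4.35% and 5.82% of all genes).

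The other 4 genes lay closer to the sum. MARVELD3 (1.49 against 2.35) and TJP1 (6.97 against 7.83) both departed by -0.87. CLDN4 measured 1.58 against 1.66, and TJP3 measured 1.22 against 1.05, departures of -0.07 and 0.17, but an expectation that close to the array medians leaves little room below it. The shared OCLN probe set measured 1.95 against 4.84, a departure of -2.89. Without replicates, how far such departures vary between arrays of 1 line is unknown.

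**Figure D4:**
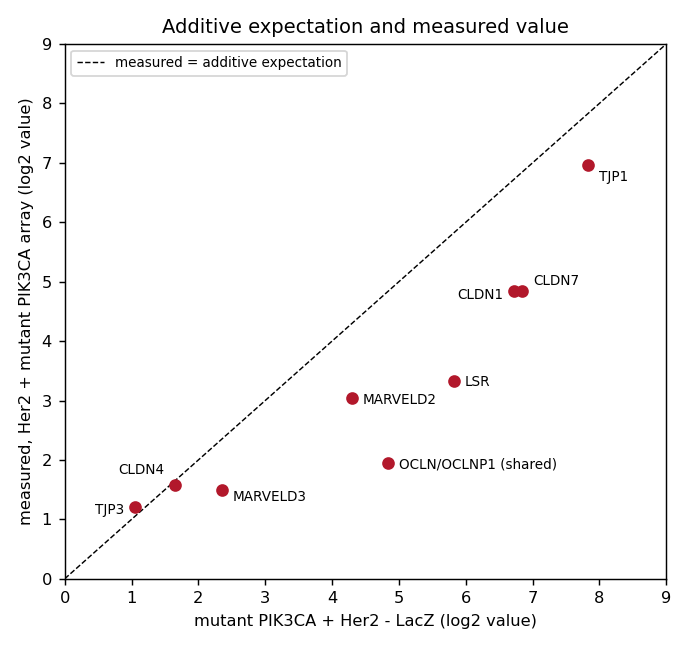
Measured log2 value on the array labelled Her2 + mutant PIK3CA (vertical axis) against the additive expectation from the other arrays (horizontal axis), 1 point per gene, with the dashed line of equality. LSR, CLDN7, CLDN1, MARVELD2 and the shared OCLN probe set lie more than 1 unit below the line, and CLDN4 and TJP3 lie near it.

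The rest of the tight junction was described by lists chosen with earlier results of these data known. None of the 21 other claudins reached a log2 value of 5 on any array, and the highest value among them was 3.06 (CLDN3, on the LacZ array). In this group 0 of 21 differed at least 2-fold between the doubly labelled array and LacZ, where 4.44% of all 20893 genes were lower and 6.49% higher. Differences are compressed at values this low, so that count cannot show whether these genes changed. A further list held 7 measured genes of membrane proteins. On it, MARVELD1, a MARVEL-domain gene whose place at the junction was not examined, was 4.19 on the doubly labelled array and 5.78 on the LacZ array. It was 5.50 and 5.63 on the arrays labelled mutant PIK3CA and Her2. Its difference from LacZ was -1.59 on the doubly labelled array. CRB3, an apical polarity protein chosen after its values were seen, read 1.71, 4.43, 3.13 and 4.26 on the same arrays in that order, a difference of -2.55. The other 5 (JAM2, JAM3, ILDR1, ILDR2 and TMEM47) differed by less than 2-fold. They lay between 0.40 and 1.20 on all arrays, too low to show whether they changed. F11R and CXADR were not analysed here.

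Of 18 measured cytoplasmic plaque genes, 2 were lower and 2 higher by 2-fold or more against LacZ on the doubly labelled array, with a median of -0.08. Over the 4311 genes these shares were 11.1% and 13.8%, and over all 20893 genes 4.44% and 6.49%. Only 6 of the plaque genes reached 5, of which 2 were lower and 0 higher. These small counts were not tested against either share. Lower were PARD6B, a polarity adaptor (3.83 against 5.23, a difference of -1.40), and PATJ, a scaffold of the Crumbs complex (5.00 against 6.23, -1.24). Higher were the scaffolds MPDZ (3.92 against 2.60, 1.32) and MAGI3 (3.95 against 2.65, 1.31), which stayed below 5 and were chosen after their values were seen. Among the plaque genes that reached 5, PALS1, LIN7C, PARD3 and the kinase PRKCI differed by 0.67, 0.29, 0.26 and 0.23. Of 10 measured genes of junction signalling, 0 were at least 2-fold different, but only 3 of them reached 5. Those 3, SYMPK, CDK4 and VAPA, differed by -0.50, -0.06 and 0.11.

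Transcription factors known to act on junction genes included 3 of 15 that were lower and 2 that were higher by 2-fold or more on the doubly labelled array, set against LacZ, and the median was -0.59. The shares over the 4311 genes were 11.1% lower and 13.8% higher, and over all 20893 genes 4.44% and 6.49%. The count of higher factors lay near the 13.8%, but only 5 of the 15 factors reached 5. Of those 5, 2 were lower and 1 higher, and these small counts were not tested against either share. GRHL2, an activator of epithelial junction genes, read 3.36 on the array labelled Her2 + mutant PIK3CA, 5.12 on the array labelled mutant PIK3CA, 4.32 on the array labelled Her2 and 5.14 on the LacZ array. The epithelial ETS factors EHF and ELF3 differed from LacZ by -1.16 and -2.83, ELF3 being chosen after its values were seen. KLF5, an epithelial zinc finger factor, differed by -0.86. On the array labelled mutant PIK3CA, EHF and ELF3 differed from LacZ by -0.04 and -1.07, and on the array labelled Her2 by -1.29 and -1.34.

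Among the repressors, ZEB1, chosen after its values were seen, read 3.36 on the doubly labelled array, 1.76 and 1.97 on the arrays labelled mutant PIK3CA and Her2, and 1.08 on the LacZ array. It was highest where LSR, CLDN7, CLDN1 and MARVELD2 were lowest, at a value that stayed below 5, and a link between ZEB1 and these genes was not tested. TWIST1, a mesenchymal transcription factor, read 5.22, 3.99, 5.84 and 4.02 on the same arrays in that order and so was highest on the array labelled Her2. SNAI2, the repressor Slug, was high on all arrays (9.81, 9.74, 9.77 and 9.32), with a difference of 0.49 from LacZ on the doubly labelled array, and SNAI1 lay between 1.18 and 1.78.

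**Figure D5:**
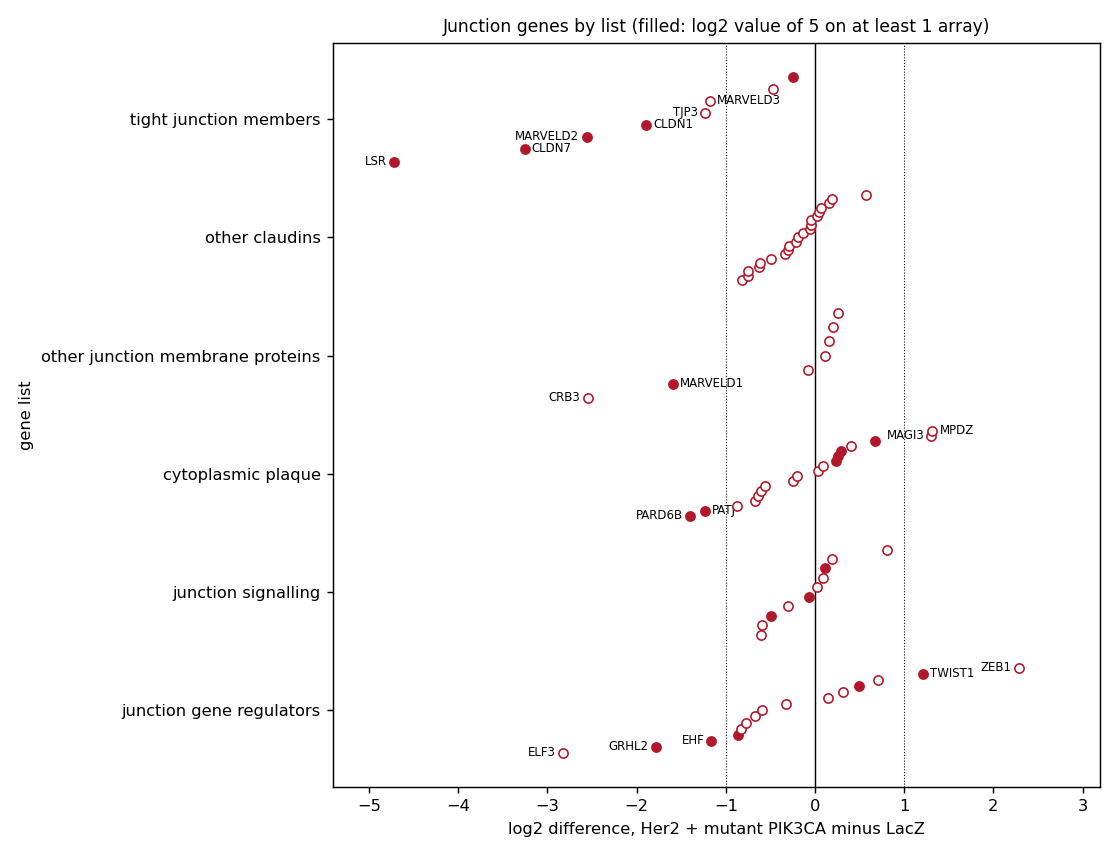
Log2 difference between the array labelled Her2 + mutant PIK3CA and the LacZ array (horizontal axis) for each measured gene of the junction lists (rows), with filled points for genes at 5 or more on any array and dotted lines at 2-fold. LSR at -4.72 is the lowest point, the other claudins lie within 2-fold, and ZEB1 at 2.28 is the highest.

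Genes whose profile over the 4 arrays was most like that of a junction gene were found among 4306 other genes that reached 5. The measure was the Euclidean distance in log2 units after subtracting each gene's mean, over 4 arrays only, so it describes likeness and supports nothing further. Nearest to CLDN7 was SMOC1, a secreted matrix protein (distance 0.12), then JUP (plakoglobin, 0.23), B3GNT3 (0.27), the splicing regulator ESRP1 (0.31) and the protease KLK5 (0.31). Nearest to CLDN1 were DSC2 (desmocollin, 0.27), CHMP4C (0.31), S100A14 (0.31), the elastase inhibitor PI3 (0.33) and FXYD3 (0.33).

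LSR had no neighbour closer than 0.60, the adhesion receptor gene ADGRG1. It was followed by PRSS8 (the membrane protease prostasin, 0.67), CDH1 (E-cadherin, 0.67), AP1M2 (0.71) and HSD11B2 (0.79). For MARVELD2 the nearest were CLSTN1 (0.24), the protease inhibitor SPINT2 (0.29), PRAG1 (0.31), PLLP (0.43) and FAM83H (0.45). TJP1, with its narrow range, had closer ones, as many genes do that vary little: NBPF14 (0.05), the clock factor BMAL1 (0.06), ZFAND1 (0.06), TCF20 (0.09) and SEC11C (0.10). For the median profile of the 5 junction genes that reached 5, the nearest were HBEGF (0.12), FAM83H (0.15), PROM2 (0.17), RAB25 (0.30) and EPCAM (0.33). Among the junction genes themselves, the closest pair was MARVELD3 and TJP3 (0.66), both of low value, and the farthest CLDN4 and LSR (3.50).

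Lists of cell type markers were read on the same arrays. Of 5 pan-epithelial markers, 3 were lower by 2-fold or more on the doubly labelled array, where 11.1% of the 4311 genes were (4.44% of all genes). CDH1, ESRP1 and EPCAM differed from LacZ by -4.27, -2.98 and -2.22, while KRT18 and KRT8 differed by -0.27 and 0.01. The list's summed linear signal was 135 on the doubly labelled array, 1111 and 835 on the arrays labelled mutant PIK3CA and Her2, and 1205 on the LacZ array. KRT5, a basal keratin of MCF10A, stayed at 7.14, 7.52, 7.08 and 7.27 on the same arrays in that order, and KRT17 and TP63 were not analysed here. Of 6 measured basal markers, ITGB4 and CDH3 were lower (-1.30 and -3.24) and KRT14 higher (1.96), and of 5 luminal markers KRT7 was lower (-1.04). Over the 4311 genes the shares were 11.1% lower and 13.8% higher, and over all genes 4.44% and 6.49%. Counts of 1 in lists this short cannot be set apart from those shares.

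Of 7 measured fibroblast markers, 3 were higher by 2-fold or more against LacZ on the doubly labelled array (LUM, DCN and DPT) and 0 lower. Over the 4311 genes these shares were 13.8% and 11.1%, and over all genes 6.49% and 4.44%. The list's summed linear signal was 378, 50.8, 404 and 42.7 on the arrays labelled Her2 + mutant PIK3CA, mutant PIK3CA, Her2 and LacZ. This sum runs across genes, and on the doubly labelled array and the array labelled Her2 its highest member was DPT. LUM and DCN read 6.26 and 5.06 on the doubly labelled array and at most 1.15 on the others. DPT was high on the doubly labelled array (7.86) and the array labelled Her2 (8.38) and low on the array labelled mutant PIK3CA (3.69) and LacZ (3.41). FAP read 4.86 on the doubly labelled array, 4.71 and 5.92 on the arrays labelled mutant PIK3CA and Her2, and 4.34 on the LacZ array. Its difference from LacZ was 1.57 on the array labelled Her2 and 0.52 on the doubly labelled array. The measured fibrillar collagen genes stayed low on all arrays, COL1A1 between 1.79 and 2.24 and COL1A2 between 0.73 and 0.87, as did PDGFRB (0.78 to 1.01). None of 5 endothelial markers, which include CLDN5, and none of 4 blood markers reached 5 on any array. None differed by 2-fold between the doubly labelled array and LacZ, where 4.44% of all genes were lower and 6.49% higher. A count of 0 in lists this short cannot be set apart from those shares. Several values were also too low to show a decrease, CDH5, VWF and PTPRC lying at or below 1.10. KDR, the highest of these markers, read 4.81 on the doubly labelled array and 3.83 on the LacZ array. It read 2.03 and 3.57 on the arrays labelled mutant PIK3CA and Her2, which were 2.77 and 1.24 below the doubly labelled array. Among the blood markers, CD14 differed by -1.26 between the doubly labelled array and the array labelled Her2. COL3A1, PDGFRA and PECAM1 were not analysed here. The part of these markers in the junction values was not tested.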

How the data were processed

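The authors deposited log2 expression values per probe set. According to the submitters' processing notes these came from RMA, run with oligo. RMA corrects background, brings the arrays to 1 distribution and merges the probes of a set, which compresses values near the low end. Tool versions and how probe sets were defined or filtered: not given in the sources used here. Values ran from -0.77 to 12.35, as RMA's log2 output does, with no header stating the base. No detection call was at hand, and the number of arrays, 1 per group, limits the precision.

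Of 53617 probe sets, 23871 had 1 gene symbol in the platform annotation, 1842 several, and 27904 were not named by it. RefSeq (GRCh38.p14) gave newer symbols, by gene identifier, for 90. A gene took its probe set with the highest mean. Small RNAs, ERBB2 and PIK3CA were left out of counts, leaving 20893 genes, 4311 of them reaching 5 on any array. Each of the 8 measured junction genes had 1 such probe set.

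Differences were taken between arrays for 6 pairs, called from 2-fold, with no test because each group has 1 array. Counting was tested on simulated data. All 9 listed genes were to be named, then the 3 highest and 3 lowest of each list among genes reaching 5, and the 5 nearest profiles. The members and lists were chosen with earlier results of these data known. Alternatives used limma 3.58.1 in R 4.3.3 (quantile normalization, cyclic loess with 3 iterations), other folds (1.5 and 3), and other filters. Summaries used Python 3.11.15.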

Additional observations from a re-analysis of the deposited data

Results flagged for a closer look

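Opposite differences under the same label were seen in CLDN1 and in the probe set shared by OCLN and OCLNP1. For CLDN1, the array labelled mutant PIK3CA was 0.72 above LacZ, whereas the doubly labelled array differed from the array labelled Her2 by -1.17. For the shared OCLN probe set the same differences were 0.70 and -2.19. Each difference rests on 1 array per group, and the difference between the pairs was not tested. Junction genes were listed here when both differences were at least 1.5-fold and of opposite sign, and no other junction gene met this for either label.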

How the results depend on the processing

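No paired analysis was possible because each group has 1 array. Over the 8 genes and 7 contrasts, 26 differences were at least 2-fold. All 26 kept their direction under quantile normalization and cyclic loess of all probe sets and under the mean of all probe sets, and 25, 26 and 26 stayed at least 2-fold. Taking all probe sets of a gene moved nothing, since each gene has 1. A median counted as moved beyond 0.3 log2 units, and a count beyond 1.5 times.

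Quantile normalization over the genes reaching 5, which leaves 5 junction genes, gave medians of -3.30 (both against LacZ), -2.73 (both against mutant PIK3CA), -2.35 (both against Her2), 0.0741 (mutant PIK3CA against Her2) and -2.09 (departure). It left 1 gene lower on the array labelled Her2 and 1 higher between the single-gene arrays. LSR then differed from LacZ by -5.51 on the doubly labelled array, and MARVELD2 by -3.53.

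Stricter filters on the junction genes themselves remove the low ones by construction. At a value of 7 (4 genes), the medians were -2.58 (both against LacZ), -2.81 (both against mutant PIK3CA), -1.70 (both against Her2) and -1.94 (departure), with 3 genes lower in each of the first pairs and 1 higher between the single-gene arrays. At a mean of 4, and at a value of 5, an alternative added after seeing the data, the same 5 genes gave -2.56, -2.61, -2.05 and -1.89 in that order, again with 1 higher between the single-gene arrays. With the shared OCLN probe set as a ninth member, also added after seeing the data, the median against LacZ was -1.90.

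At 1.5-fold, the array labelled mutant PIK3CA had 3 genes lower and 2 higher than LacZ, the array labelled Her2 had 5 lower, 1 was higher between both and Her2, and 4 between the single-gene arrays. At 3-fold, these counts against LacZ were 0 for the genes lower on each single-gene array, and 1 gene was higher between the single-gene arrays. On the doubly labelled array, MARVELD3 (2.26-fold) and TJP3 (2.34-fold) no longer counted as lower than LacZ. Against the array labelled mutant PIK3CA, MARVELD3 (2.53-fold) and CLDN4 (2.31-fold) dropped out, and against the array labelled Her2, CLDN1 (2.26-fold). MARVELD2 (2.40-fold) dropped out of the departures. Without the filter on all genes, 4.44% of genes were lower by 2-fold on the doubly labelled array, set against LacZ, and 11.1% with it. Signal near the array medians limits CLDN4, MARVELD3 and TJP3.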
